A study of Mus musculus with 12 samples.

Results

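Interferon-stimulated genes are the antiviral program that a cell turns on when it senses foreign RNA or receives an interferon signal, and the RNA sensors are the proteins that start it. A list of 40 such genes, chosen with earlier results of these data known, was followed in E14 mouse embryonic stem (ES) cells. The cells had undergone knockdown (KD) of factors that write, oxidise or bind methylated DNA or remodel chromatin. The shares of members called below therefore describe this list and are no test of it. Of the 40, 38 had a probe on the array and 35 passed the filter on dim probes, against 29844 genes tested in all. Of all those tested, 19392 had a gene symbol, and the shares of all genes called also count those without one. When a gene had several probes, the one with the highest mean signal stood for it.

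RNA was measured on 12 one-colour Agilent arrays, with 6 groups of 2 arrays, namely the control EGFP KD and KD of Mbd3, Chd4, Mbd2, Dnmt1 or Tet1. Dnmt1 maintains DNA methylation, Tet1 oxidises methylcytosine, Mbd3 and Mbd2 are alternative members of the NuRD complex, and Chd4 is its remodeling ATPase. All groups were E14 cells, a male line grown without feeders on gelatin in serum and LIF, and every group, the control included, was transfected with esiRNA, a pool of short double-stranded RNAs made with endoribonuclease III, using lipofectamine. RNA was collected 48 hr later, so the control cells had also been given double-stranded RNA and every difference below is relative to such cells. Cells without transfection were not analysed here. Levels are log2 of the background-corrected signal over the array's 75th percentile, so a value of 0 is the signal at that percentile, and differences are log2 fold changes over EGFP KD unless another group is named. Signals under the floor of -4.86 on this scale were set to it and have no order among themselves.

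When long double-stranded RNA appears in the cytoplasm, the helicases Rig-I (encoded by Ddx58) and Mda5 (Ifih1) signal through the mitochondrial adaptor Mavs to the interferon regulatory factors, which switch on interferon genes. Secreted type I interferon then acts through its receptor on transcription factors that bind a DNA element called the interferon-stimulated response element (ISRE) in the promoters of its targets. ES cells are known for a muted form of this response compared with differentiated cells.

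The promoters of 6 members are shown because their genes behaved differently on these arrays. Rsad2, Cxcl10, Oasl1 and Xaf1 rose in at least 1 KD, whereas Isg15 was called in no KD and Ifit1 was at the floor on all 12 arrays. Each sequence is the 250 bases before the annotated start in RefSeq on GRCm38.p6, in the direction of transcription, with letters that match the ISRE core GAAANNGAAA or its reverse complement TTTCNNTTTC in capitals.
Isg15, chr4:156200819-156201068, minus strand: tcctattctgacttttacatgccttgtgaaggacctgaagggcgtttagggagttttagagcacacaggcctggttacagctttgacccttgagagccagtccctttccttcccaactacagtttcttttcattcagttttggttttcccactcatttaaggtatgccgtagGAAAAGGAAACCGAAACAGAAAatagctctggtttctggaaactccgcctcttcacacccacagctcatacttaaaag
Ifit1, chr19:34640639-34640888, plus strand: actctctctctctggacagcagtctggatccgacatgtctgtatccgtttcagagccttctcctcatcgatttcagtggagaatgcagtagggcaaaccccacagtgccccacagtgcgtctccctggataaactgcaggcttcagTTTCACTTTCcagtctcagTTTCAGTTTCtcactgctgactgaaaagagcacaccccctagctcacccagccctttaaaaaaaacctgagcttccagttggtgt
Rsad2, chr12:26456453-26456702, minus strand: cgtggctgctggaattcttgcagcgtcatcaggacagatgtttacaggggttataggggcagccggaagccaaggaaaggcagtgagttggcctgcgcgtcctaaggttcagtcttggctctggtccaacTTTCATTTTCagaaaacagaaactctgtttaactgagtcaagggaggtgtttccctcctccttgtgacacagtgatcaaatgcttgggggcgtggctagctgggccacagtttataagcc
Cxcl10, chr5:92348890-92349139, minus strand: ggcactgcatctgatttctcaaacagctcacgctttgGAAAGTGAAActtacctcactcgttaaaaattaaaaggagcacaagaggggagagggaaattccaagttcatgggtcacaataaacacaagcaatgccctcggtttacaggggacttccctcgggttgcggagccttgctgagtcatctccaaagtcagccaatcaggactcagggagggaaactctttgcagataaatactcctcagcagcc
Oasl1, chr5:114922990-114923239, plus strand: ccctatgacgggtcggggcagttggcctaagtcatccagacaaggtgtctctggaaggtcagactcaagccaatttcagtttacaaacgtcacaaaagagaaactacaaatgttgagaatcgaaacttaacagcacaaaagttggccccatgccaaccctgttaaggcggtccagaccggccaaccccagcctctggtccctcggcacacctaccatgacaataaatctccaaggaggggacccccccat
Xaf1, chr11:72301379-72301628, plus strand: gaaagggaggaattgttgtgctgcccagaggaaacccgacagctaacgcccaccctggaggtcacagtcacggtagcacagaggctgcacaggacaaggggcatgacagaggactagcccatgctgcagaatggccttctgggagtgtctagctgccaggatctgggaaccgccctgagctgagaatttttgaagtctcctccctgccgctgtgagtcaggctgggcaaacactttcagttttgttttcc

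Isg15, which encodes a ubiquitin-like protein, held 3 overlapping matches beginning 78, 72 and 66 bases before the start, and Ifit1, an RNA-binding inhibitor of translation, held matches at 104 and 85 bases. Rsad2, which encodes the antiviral enzyme viperin, had 1 match 120 bases before the start. The chemokine gene Cxcl10 had 1 match 213 bases before it. Ifitm3 held 2 matches, beginning at bases 3 and 20 from the start. Neither the Oasl1 window nor the Xaf1 window held these letters. Over 32851 promoter windows of 300 bases (250 before and 50 after the start) 3.44% held an ISRE match, compared with 15 of the members' 38 windows (39.5%), which belonged to 15 of the 33 members that had a window. The gamma-activated sequence TTCNNNGAA, a palindrome searched in the same windows, occurred in 8.3% of all windows and in 9 of the members' 38 (23.7%), and in 2 member windows it overlapped an ISRE match. Members' windows held a median of 10 CpG dinucleotides (range 1 to 43), against 7 over all windows. Usp18, Oas2, Mx1, Mx2, Dhx58, Zbp1 and Parp14 had no window.

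**Figure D1:**
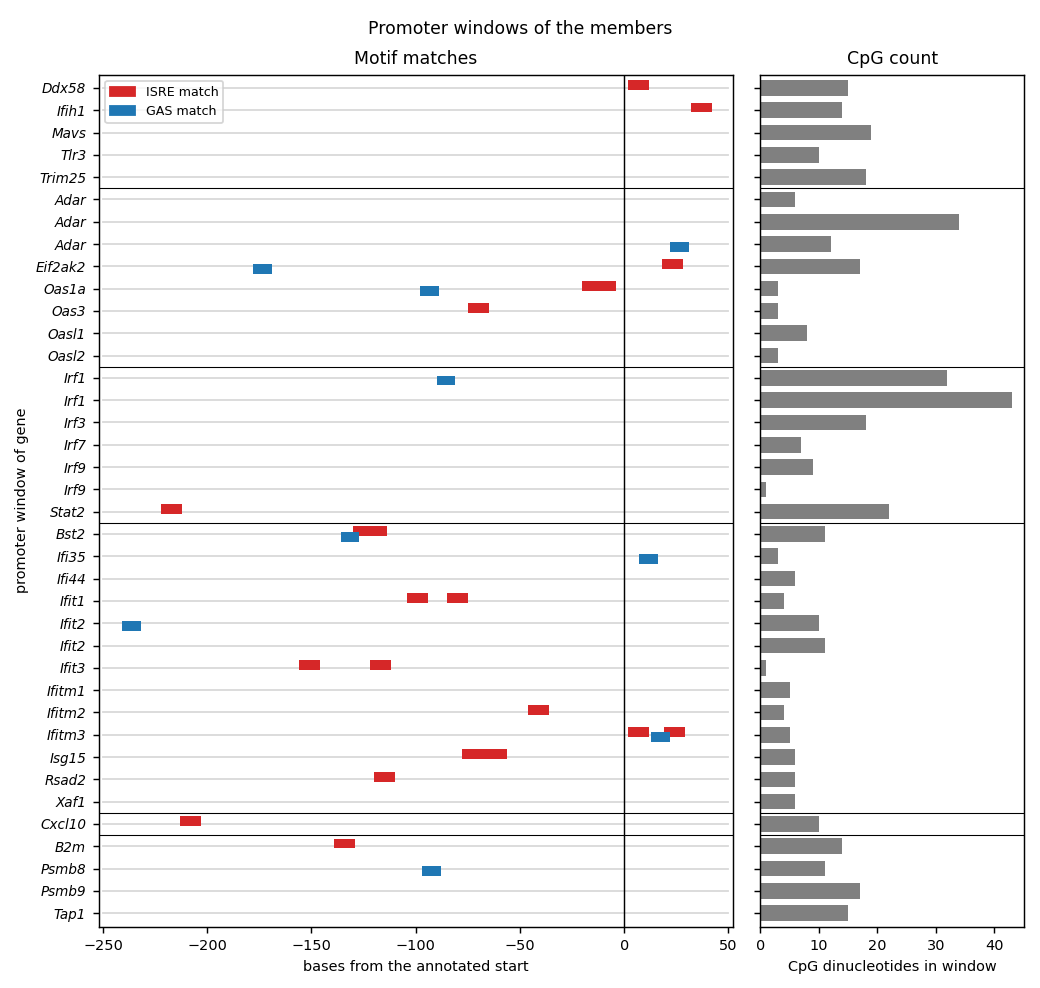
Positions of ISRE matches (red) and gamma-activated sequence matches (blue) in bases from the annotated start, 1 line per promoter window of a member grouped by role, with the number of CpG dinucleotides in the window as bars at the right. Matches lie on both sides of the start, and the Oasl1 and Xaf1 windows hold none.

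Before the members were compared, the arrays themselves were examined. The scanner software marked 30321 to 37535 of the 39429 probes on an array as well above background, its mark for a detected spot. Slide 1 carried replicate 1 of Mbd3 KD, EGFP KD, Mbd2 KD and Dnmt1 KD, slide 2 carried EGFP KD replicate 2, Chd4 KD replicate 1 and both Tet1 KD arrays, and the remaining arrays, with no control among them, were on slide 3. Of 10 ES cell markers 9 were well above background on all 12 arrays, the exception being Nanog. The mRNAs of Dnmt1, Mbd3 and Chd4 were lower on both arrays of their own KD, by between 1.01 and 3.34 on the log2 scale relative to the EGFP KD mean. For Tet1 (probe A_55_P2122997) the array labelled Tet1 KD replicate 2 gave -1.81 relative to that mean and replicate 1 gave -0.02, while the array labelled Mbd2 KD replicate 1 gave -1.79. For Mbd2 (probe A_66_P133043) the arrays labelled Mbd2 KD gave -0.24 (replicate 1) and -1.77 (replicate 2), and the array labelled Tet1 KD replicate 1 gave -1.75. A second, brighter Mbd2 probe (A_55_P2036526) was low on neither Mbd2 KD array (-0.08 and -0.07) and gave -0.20 and -0.61 on the Tet1 KD arrays. A second Tet1 probe (A_51_P512172) gave 0.23 and -0.93 on the Tet1 KD arrays and -1.18 and 0.25 on the Mbd2 KD arrays. By the first Mbd2 probe and both Tet1 probes, the arrays labelled Tet1 KD replicate 1 and Mbd2 KD replicate 1 look exchanged with each other. The labels were kept, so the Tet1 KD and Mbd2 KD means may each average 2 different KDs. Results for these groups are also given without the array in question. The study describes the 2 arrays of a group as biological replicates. The p-values measure the spread between the arrays of a group, pooled over the 6 groups. Outside Tet1 KD the 2 arrays of a group were on different slides, so this spread includes slide differences. It also includes any effect of the doubtful labels in Tet1 KD and Mbd2 KD.

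In control ES cells the members were detected at about the rate of all genes with a symbol. On both EGFP KD arrays 31 of the 38 members with a probe were well above background (81.6%, against 85.1% of 20659 genes with a symbol on the array), 5 were so on 1 of the 2 arrays (Ifit1, Ifit3, Rsad2, Oasl2 and Cxcl10) and 2 on neither (Ifi44 and Tlr3). Of the 31, Ifit2 and Ifih1 carried the mark although their signal on EGFP KD replicate 1 was at the floor. Over all 12 arrays, 26 members were well above background on every array, 10 on some and 2 on none. By role, all 5 transcription factors (Irf1, Irf3, Irf7, Irf9 and Stat2) were well above background on all 12 arrays, as were 6 of the 7 enzymes that bind or act on double-stranded RNA, 4 of the 7 sensors and adaptor genes, 3 of the 4 antigen processing genes and 8 of the 14 effectors with a probe. The signals of Ifit1, Ifit3, Ifi44 and Tlr3 were at the floor on all 12 arrays, and Mx1 and Mx2, which encode dynamin-like antiviral GTPases, had no probe that could be named. Ifit1, Ifi44 and Tlr3 were not tested, while Ifit3 passed the filter because its spots were marked as detected on both arrays of a group, although its scaled signal never left the floor.

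The highest signals in EGFP KD were those of Ifitm1 (mean 4.76), Trim25 (4.24) and Ifitm2 (3.98), although the brightness of different probes does not rank their mRNAs. Ifitm1, Ifitm2 and Ifitm3 encode membrane proteins that block virus entry. Ifitm1 lay at 4.56 and 4.97 in EGFP KD and between 4.47 and 5.09 on the other 10 arrays, with 7 of the 12 spots saturated. Ifitm2 lay at 4.15 and 3.81 in EGFP KD and between 3.41 and 4.20 elsewhere. Neither was called in any KD, but Ifitm3 was, and its values follow with Chd4 KD.

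Of the RNA sensor genes Ddx58, Ifih1, Dhx58 and Tlr3, Ddx58 was the one that was well above background on all 12 arrays. For Ddx58 the EGFP KD arrays read 2.71 and 2.82, the Mbd3 KD arrays 2.28 and 2.20, the Chd4 KD arrays 2.29 and 2.09, the Mbd2 KD arrays 2.44 and 2.64, the Tet1 KD arrays 2.53 and 2.77, and the Dnmt1 KD arrays 2.78 and 2.92. Both Mbd3 KD arrays and both Chd4 KD arrays lay below every other array, yet neither difference was called (-0.52 with limma adjusted p = 0.17, and -0.57 with adjusted p = 0.068), and a second, dimmer Ddx58 probe (A_52_P385536) gave -0.12 and -0.03. Ifih1, which encodes Mda5, ranged from the floor to -3.78 with 5 arrays at the floor. Dhx58, whose product Lgp2 modulates the other helicases, ranged from the floor to -3.14. The endosomal sensor gene Tlr3 was at the floor throughout. Mavs lay at 0.66 and 0.47 in EGFP KD and between -0.18 and 0.52 elsewhere, and its difference was largest in Tet1 KD (-0.54, limma adjusted p = 1). The nucleic acid sensor gene Zbp1 and the Rig-I ubiquitin ligase gene Trim25 were called in no KD.

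**Figure D2:**
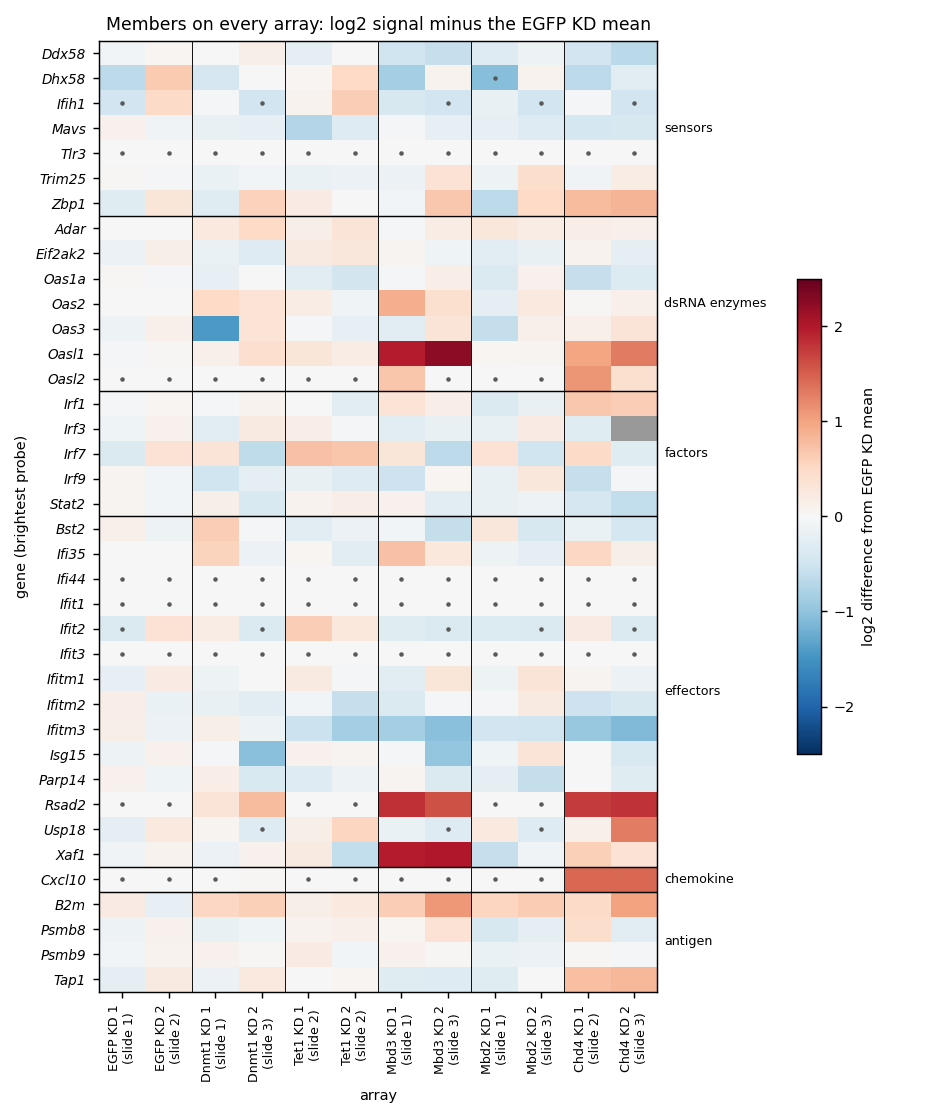
Log2 signal minus the EGFP KD mean (colour) for the 38 members with a probe, in rows by role, on each of the 12 arrays in columns with their slide. Dots mark signals at the floor and gray marks a spot left out as an outlier (Irf3, Chd4 KD replicate 2). The strongest red lies in the Oasl1, Rsad2 and Xaf1 rows of Mbd3 KD and in the Rsad2 and Cxcl10 rows of Chd4 KD.

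The first comparison asked whether any member changed when Mbd3 was depleted. In Mbd3 KD 3 of the 35 tested members were called and all 3 rose, namely Oasl1, Rsad2 and Xaf1 (8.57%, where 0.764% of all 29844 genes were called and 0.479% were called higher). The other 32 were not called, and the members' median change was 0.00, against -0.03 over all genes.

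Oasl1 encodes a protein related to the oligoadenylate synthetases that restrains translation of Irf7. The EGFP KD arrays read -2.47 and -2.43 on the log2 scale, the Mbd3 KD arrays -0.48 and -0.21, the Chd4 KD arrays -1.47 and -1.15, the Mbd2 KD arrays -2.41 and -2.39, the Dnmt1 KD arrays -2.32 and -2.03, and the Tet1 KD arrays -2.15 and -2.26. The 2 Mbd3 KD arrays were the highest of the 12 and the 2 Chd4 KD arrays came next, with no overlap between these groups or with any other. The rise after Mbd3 KD was 2.11 (standard error 0.15, limma adjusted p = 0.0056), or 4.31-fold. On slide 1, where both groups had an array, Mbd3 KD exceeded EGFP KD by 1.99. With slide as a block it was the only member still called in Mbd3 KD.

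Xaf1 encodes a pro-apoptotic protein that antagonises inhibitors of apoptosis. Its signal was -0.77 and -0.60 in EGFP KD and 1.28 and 1.33 in Mbd3 KD, and on the other 8 arrays it lay between -1.30 and -0.09. Mbd3 KD thus stood apart from all other groups. The rise was 1.99 (standard error 0.28, limma adjusted p = 0.037), and within slide 1 it was 2.04. A second Xaf1 probe (A_55_P1966833) was at -3.12 and -3.16 in EGFP KD and at -1.11 and -1.31 in Mbd3 KD, a rise of 1.94. With any 1 array left out its size stayed between 1.90 and 2.07, but it did not pass the threshold in 17 of 25 alternatives, including each that left out an array of EGFP KD or Mbd3 KD.

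Rsad2 was at the floor on both arrays of EGFP KD, Tet1 KD and Mbd2 KD. It reached -4.53 and -4.06 in Dnmt1 KD, -3.03 and -3.27 in Mbd3 KD, and -3.11 and -3.06 in Chd4 KD, so that Mbd3 KD and Chd4 KD overlapped with each other and with no other group. Relative to EGFP KD its rise was 1.71 after Mbd3 KD (limma adjusted p = 0.011) and 1.78 after Chd4 KD (adjusted p = 0.0024), each with a standard error of 0.15. Because the control sits at the floor, the size depends on where that floor is set, and with a lower floor it was 2.94 in Mbd3 KD and 3.0 in Chd4 KD. With 6 of 12 arrays at the floor, the standard error understates the spread of this probe. Rsad2 passed the filter on dim probes only through Dnmt1 KD, Mbd3 KD and Chd4 KD, the groups in which it left the floor. Its place among the tested and called members rests on those groups. In Mbd3 KD the call was lost, among other alternatives, with slide as a block, with a lower floor, and without replicate 1 of EGFP KD or of Mbd3 KD.

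Some members that were not called lay apart from EGFP KD on both Mbd3 KD arrays. Ifitm3 differed by -0.94 (limma adjusted p = 0.066). B2m, the light chain of MHC class I, lay at -0.22 and -0.62 in EGFP KD and at 0.20 and 0.66 in Mbd3 KD, a difference of 0.85 (limma adjusted p = 0.23). Within slide 1 the B2m difference was 0.42. Oas2 lay at -0.52 and -0.54 in EGFP KD and at 0.37 and -0.12 in Mbd3 KD (0.65, limma adjusted p = 0.35). Ifi35 also lay apart (0.50, adjusted p = 0.68). Isg15 (-0.49, adjusted p = 0.82), Irf7 (-0.18, adjusted p = 0.99) and Stat2 (-0.09, adjusted p = 0.96) overlapped EGFP KD and were not called. Within slide 1 the differences of Isg15, Irf7 and Stat2 were 0.10, 0.67 and 0.04, of the opposite sign. Tap1, a subunit of the peptide transporter of antigen processing, was well above background on both EGFP KD arrays and on neither Mbd3 KD array. Its means were -4.50 and -4.82, a difference of -0.32 that was not called (limma adjusted p = 0.74). Within slide 1 the Tap1 difference was -0.09.

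**Figure D3:**
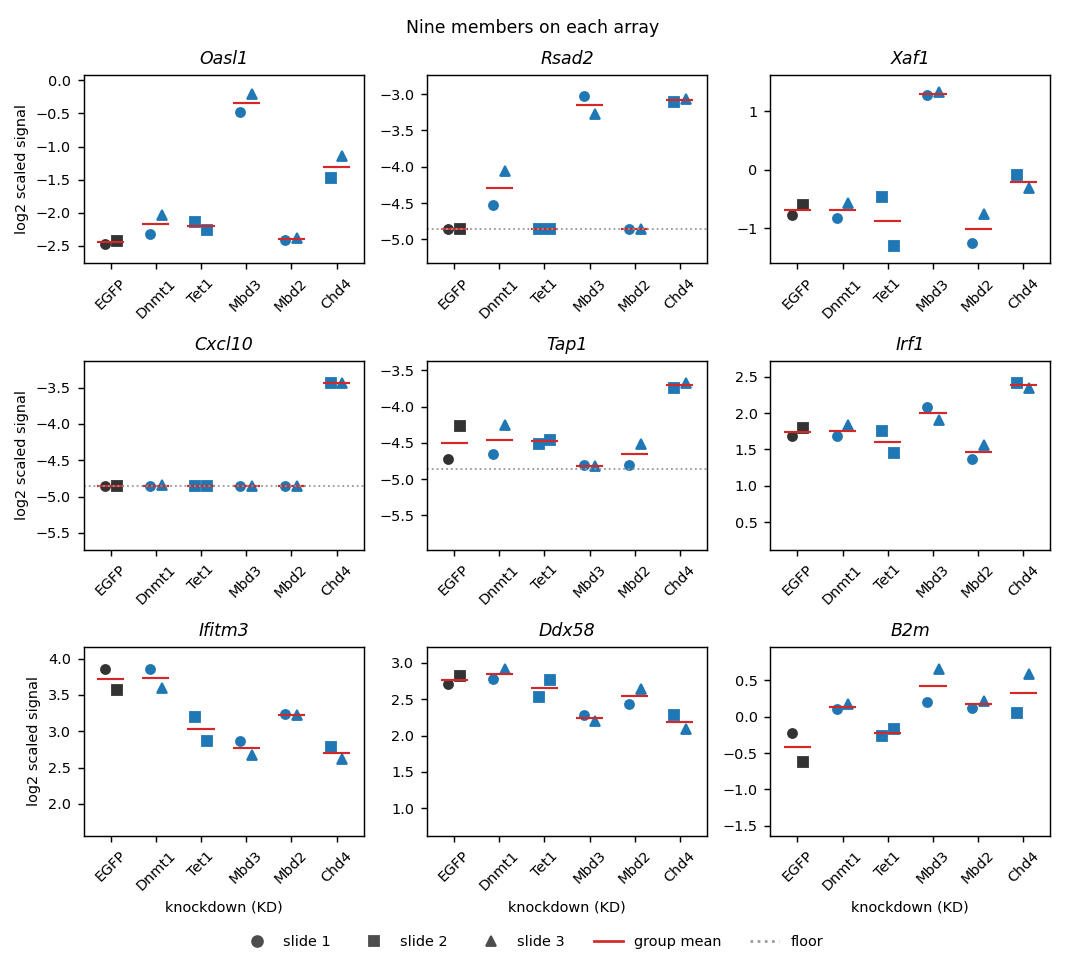
Log2 scaled signal (vertical axes, each panel with its own range) of 9 members on every array, by KD group, with marker shape giving the slide, a red bar the mean of the 2 arrays and a dotted line the floor where it falls in range. Oasl1 and Xaf1 are highest in Mbd3 KD, Cxcl10 and Tap1 are highest in Chd4 KD, and Rsad2 leaves the floor in Dnmt1 KD, Mbd3 KD and Chd4 KD.

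Depletion of Chd4, the ATPase of the same complex, was followed by 4 called members of 35 (11.4%, where 3.19% of all genes were called). Cxcl10, Rsad2 and Oasl1 rose (8.57%, against 1.96% of all genes called higher) and Ifitm3 fell (2.86%, against 1.24% called lower). The median change of the members was 0.00, the same as over all genes. Without regard to a call, 12 members lay higher on both Chd4 KD arrays than on both EGFP KD arrays (34.3%, against 19.2% of all genes) and 8 lay lower (22.9%, against 19.0%). Of the 12, Rsad2, Cxcl10 and Oasl2 had both EGFP KD arrays at the floor, so any signal above it counted as higher. Oasl2 passed the filter on dim probes through Chd4 KD alone. Adar counted by its brightest probe (0.14), while a second probe (A_52_P183181) gave -0.55 in Chd4 KD.

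Cxcl10, which encodes a chemokine that draws T cells, was at -3.43 on each of the Chd4 KD arrays, at -4.84 on 1 Dnmt1 KD array and at the floor on the other 9. Both Chd4 KD arrays therefore stood above all others. It rose by 1.43 (standard error 0.06, limma adjusted p = 0.00045), again measured from the floor, and by 2.05 with a lower floor. The standard error is small because 9 arrays share the floor value. Cxcl10 passed the filter on dim probes only through Dnmt1 KD and Chd4 KD. For Oasl1 the rise was 1.14 (standard error 0.15, limma adjusted p = 0.01), which is 2.2-fold, and within slide 2 it was 0.96. That call was lost, among other alternatives, without either EGFP KD array and without Chd4 KD replicate 2.

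For Ifitm3 the EGFP KD arrays read 3.86 and 3.57, the Chd4 KD arrays 2.78 and 2.62, the Mbd3 KD arrays 2.87 and 2.67, the Tet1 KD arrays 3.19 and 2.87, the Mbd2 KD arrays 3.24 and 3.22, and the Dnmt1 KD arrays 3.86 and 3.60. The EGFP KD and Dnmt1 KD arrays overlapped, and all 8 other arrays lay below them. In Chd4 KD it fell by 1.02 on the log2 scale (standard error 0.16, limma adjusted p = 0.022), and by 0.79 within slide 2. The call was lost without EGFP KD replicate 1, without either Chd4 KD array and with a lower floor.

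A regulator and an antigen processing gene came close to the threshold in Chd4 KD. Irf1, a transcription factor of the interferon gamma response, lay at 1.69 and 1.79 in EGFP KD and at 2.42 and 2.35 in Chd4 KD, above all other arrays, with a difference of 0.64 (limma adjusted p = 0.052); a second probe (A_55_P2000067) gave 0.38. Tap1 lay at -4.72 and -4.27 in EGFP KD and at -3.75 and -3.67 in Chd4 KD, also above all other arrays, with a difference of 0.79 (limma adjusted p = 0.089). Zbp1 lay at -2.14 and -1.53 in EGFP KD and at -1.04 and -0.98 in Chd4 KD, a difference of 0.82 (limma adjusted p = 0.62). A second, dimmer Zbp1 probe (A_66_P139683) was at -4.12 and -3.50 in EGFP KD and at -2.75 and -2.76 in Chd4 KD. That probe differed by 1.06 and was not called either (limma adjusted p = 0.16 with every probe tested on its own). Stat2 gave -0.51 (adjusted p = 0.31).

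**Figure D4:**
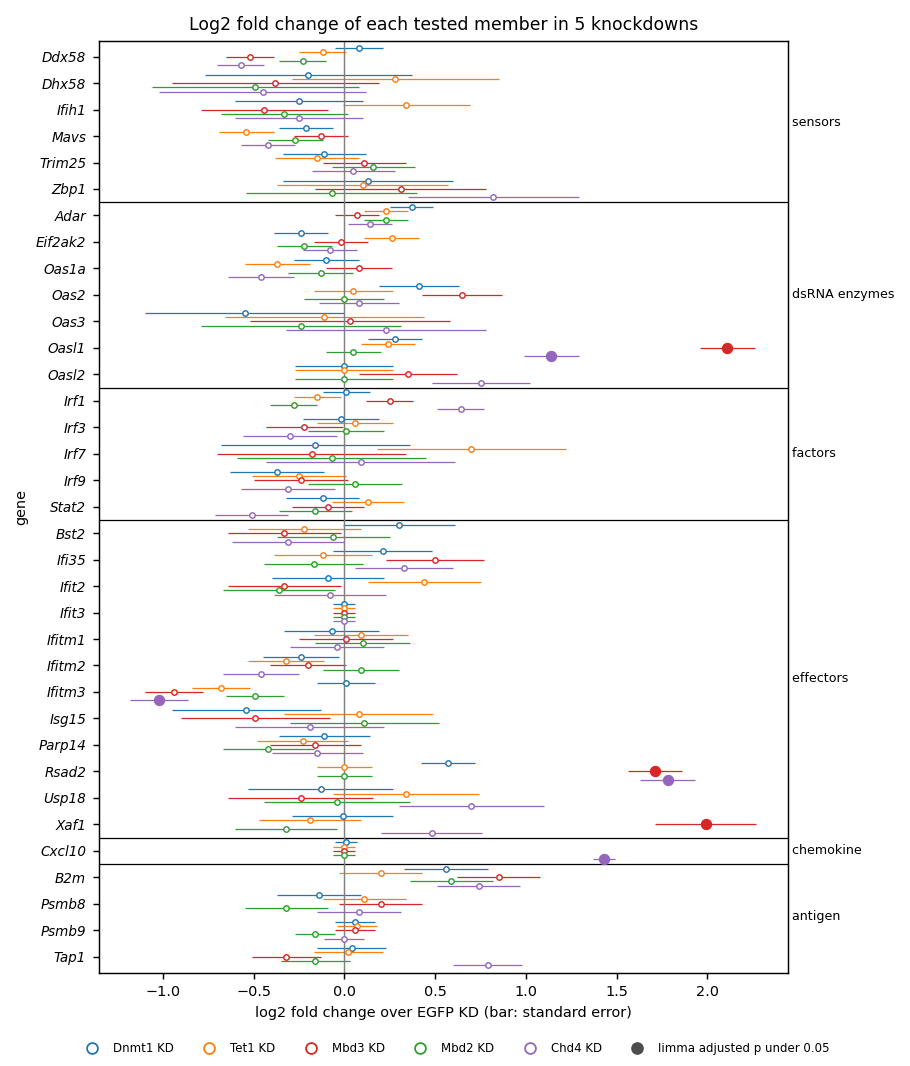
Log2 fold change over EGFP KD (horizontal axis) of the 35 tested members, in rows by role, for the 5 KDs in colour, with bars for the standard error and filled points where the limma adjusted p was under 0.05. Filled points are Oasl1 and Rsad2 in Mbd3 KD and Chd4 KD, Xaf1 in Mbd3 KD, and Cxcl10 and Ifitm3 in Chd4 KD, and most other points lie within 0.5 of 0.

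Because both KDs were measured against the same EGFP KD arrays, Mbd3 KD and Chd4 KD were also compared directly, which called 3 members (8.57%, where 1.45% of all genes were called). Oasl1 was higher in Mbd3 KD than in Chd4 KD by 0.97 (standard error 0.15, limma adjusted p = 0.034), and by 0.95 between the 2 arrays on slide 3. Cxcl10 and Tap1 were well above background on both Chd4 KD arrays and on neither Mbd3 KD array, so the sizes are uncertain. Chd4 KD was 2.7-fold higher for Cxcl10 (limma adjusted p = 0.00078), measured from the floor, and 2.16-fold higher for Tap1 (adjusted p = 0.046). Over the alternatives the difference of Mbd3 KD from Chd4 KD ranged from -2.07 to -0.75 for Cxcl10 and from -1.55 to -0.48 for Tap1. The Cxcl10 call was lost in 2 of 23 alternatives, 1 of them another background correction. The difference in Xaf1 was 1.51 but not called (limma adjusted p = 0.063), and Rsad2 was not called. The calls of Oasl1 and Tap1 were each lost in most alternatives, 15 of 24 and 14 of 23.

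Mbd2 is the alternative to Mbd3 in the NuRD complex. Against Mbd2 KD, Mbd3 KD showed higher Oasl1 (2.06), Rsad2 (1.71) and Xaf1 (2.31), with limma adjusted p-values of 0.0064, 0.01 and 0.029. These were 8.57% of the tested members, where 0.523% of all genes were called. The Mbd3 KD arrays were the same as in the comparison with EGFP KD. Rsad2 was at the floor on both Mbd2 KD arrays and passed the filter on dim probes only through groups in which it left the floor. Its call was lost with a lower floor. Slides 1 and 3 each carried both groups, and within them the difference in Oasl1 was 1.93 and 2.19, that in Xaf1 2.53 and 2.09, and that in Rsad2 1.83 and 1.59. The slide 1 values rest on the array labelled Mbd2 KD replicate 1, on which neither Mbd2 probe was low. Without that array only 1 member was called.

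After KD of Dnmt1, Tet1 or Mbd2 limma called 0 of the 35 members and 0 of all genes (0.0% in each), and this held for the members without either array of the group. At an unadjusted p under 0.05 there were 3 members in Dnmt1 KD (8.57%, against 4.73% of all genes), 2 in Tet1 KD (5.71%, against 2.85%) and 2 in Mbd2 KD (5.71%, against 2.08%). The members' medians were -0.02, 0.02 and -0.07, against -0.01, 0.09 and 0.00 over all genes.

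In Dnmt1 KD the 3 were Rsad2 (0.57, limma adjusted p = 0.63), B2m (0.56, adjusted p = 0.94) and Adar (0.37, adjusted p = 0.83), the last of which encodes the enzyme that edits adenosines in double-stranded RNA. All 3 were higher on both Dnmt1 KD arrays than on both EGFP KD arrays, but within slide 1 the differences were smaller (0.33, 0.32 and 0.24), and a second Adar probe (A_52_P183181) gave -0.17 in Dnmt1 KD. Oas2, which makes the second messenger that activates RNase L, gave 0.41, whereas Irf9 gave -0.37 and Eif2ak2, the gene of the RNA-activated kinase Pkr, gave -0.24 (-0.02 within slide 1), with none called. Among members detected on all 12 arrays whose KD and EGFP KD arrays did not overlap, Ifitm3 (-0.68) and Mavs (-0.54) were lowest in Tet1 KD and Irf7 (0.70) and Eif2ak2 (0.26) were highest, each with a limma adjusted p of 1. Both Tet1 KD arrays were on slide 2 with EGFP KD replicate 2, and against that array Irf7 differed by 0.36 and 0.32 and Eif2ak2 by 0.09 and 0.15, since Irf7 read -3.64 on EGFP KD replicate 1 and -2.91 on replicate 2. The array labelled Tet1 KD replicate 1 gave Ifitm3 3.19 and Irf7 -2.55, and replicate 2 gave 2.87 and -2.59. By the same rule in Mbd2 KD, B2m (0.59) and Adar (0.23) were the highest and Ifitm3 (-0.49) and Parp14 (-0.42), which encodes an ADP-ribosyltransferase, the lowest, again with adjusted p of 1. Within slide 1 the B2m difference was 0.34, and the second Adar probe gave -0.01.

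The remaining genes of the pathway were taken from a list of 68, of which 66 had a probe and 61 were tested. Relative to EGFP KD limma called 0 of them after KD of Dnmt1, Tet1, Mbd3 or Mbd2. At an unadjusted p under 0.05 there were 5 after Dnmt1 KD (8.2%, against 4.73% of all genes), 3 after Tet1 KD (4.92%, against 2.85%), 7 after Mbd3 KD (11.5%, against 9.66%) and 3 after Mbd2 KD (4.92%, against 2.08%). In Chd4 KD 4 rose (6.56%, against 1.96% of all genes) and 1 fell (1.64%, against 1.24%). Sting1, the adaptor of cytosolic DNA sensing, rose by 1.38 (limma adjusted p = 0.0085), Irgm1, an immunity GTPase, by 1.28 (adjusted p = 0.013), Ifi27 by 1.06 (adjusted p = 0.0096), and the MHC class I gene H2-D1 by 1.04 (adjusted p = 0.023), while the NF-kB subunit Rela fell by 0.63 (adjusted p = 0.04). Sting1 (0.97, adjusted p = 0.072) and H2-D1 (0.98, adjusted p = 0.066) were also higher on both Mbd3 KD arrays without being called. In the direct comparison with Chd4 KD, Mbd3 KD was lower in Ifi27 (-1.05, adjusted p = 0.018), Irgm1 (-1.19, adjusted p = 0.031) and Trim21 (-1.08, adjusted p = 0.042), which were 4.92% of the list, where 1.45% of all genes were called. Against Mbd2 KD, Mbd3 KD was higher in Irgm1 (1.28, adjusted p = 0.044), or 1.64% of the list, where 0.523% of all genes were called. Of the interferon genes, Ifnb1 was at the floor on 7 arrays and was called in no KD. The receptor genes Ifnar1 and Ifnar2 were well above background on all 12.

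Some markers of other cell types were called in the KDs in which members were called. In bulk RNA, more cells of a type and more RNA per cell cannot be told apart. The summed level of 6 fibroblast markers was 2.12 to 2.30 in EGFP KD, 3.17 to 3.21 after Mbd3 KD and 3.17 to 3.54 after Chd4 KD, and it was also higher, at 2.67 to 2.79, after Dnmt1 KD, where 0 members were called. Thy1 was called higher in Mbd3 KD (1.28) and Chd4 KD (1.42), and Col1a1 in Chd4 KD (2.49). Col1a2, Col3a1 and Pdgfrb gave -0.23, -0.57 and -0.18 in Mbd3 KD and -0.02, -0.74 and -0.55 in Chd4 KD, with none called, Postn was at the floor on all arrays, and the median of the 5 tested fibroblast markers was -0.18 and -0.02. For 6 trophectoderm markers the sum was 2.75 to 2.90 in EGFP KD, 3.52 to 3.55 after Mbd3 KD and 3.81 to 3.88 after Chd4 KD, with Tfap2c called in both and Krt18 in Chd4 KD, while Cdx2 gave -0.25 in each. For 6 primitive endoderm markers the sum was -0.11 to 0.72 in EGFP KD, 0.26 to 0.48 after Mbd3 KD and 0.29 to 0.71 after Chd4 KD, and none was called. The sum of the 5 blood and immune markers with a probe was 1.39 to 1.51 in EGFP KD, 1.25 to 1.57 after Mbd3 KD and 1.46 to 1.52 after Chd4 KD, and none was called. The part of these markers in the members' changes was not tested.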

How the data were processed

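Cy3-labelled RNA was hybridised, 1 sample per array, to 12 Agilent arrays. The authors quantified the spots with Agilent Feature Extraction 10.7.1.1 and deposited the scanner output, whose processed intensity is background-corrected and not scaled between arrays. Log2 ratios to EGFP KD, without a column for EGFP KD itself, come in a further table deposited by the authors and served only as an alternative; the study names limma but no normalization. Control spots (1377) and outlier spots were left out of 43020 others. Intensities were divided by the array's 75th percentile (1784.5 to 2451.6), raised to at least 0.0344 and log2-transformed, and spots of a probe were averaged. A probe was kept if both arrays of some group marked it well above background. Accessions were named through RefSeq on GRCm38.p6, which named 98.4% of spots with a RefSeq mRNA. Over all 12 arrays, 6 group means were fitted with limma 3.58.1 in R 4.3.3, with Benjamini-Hochberg adjustment over 29844 genes and a threshold of 0.05. The steps were tested on simulated data, in which 49.5% to 58.8% of genes changed by 2 on the log2 scale and 11.9% to 23.5% of genes changed by 1 were recovered in the 5 KDs. Arrays were grouped by their labels. Values of 1 gene of the wider pathway list are not reported here. Members and lists were chosen with earlier results of these data known. Values on every array are given for members called in any KD; the others named are, per KD, the 2 largest rises and falls among members detected on all 12 arrays and separated on both, the 3 strongest and weakest in EGFP KD, the Ifitm family and the sensors. Values of other members not called were picked after seeing them. The lower floor, the within-slide differences and the comparisons of Mbd3 KD with Chd4 KD and Mbd2 KD were added after seeing the data. The number of arrays limits the precision.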

Additional observations from a re-analysis of the deposited data

How the results depend on the processing

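No alternative reversed the direction of a called member. Using only the 4 arrays of a comparison left 0 members called in Mbd3 KD, Chd4 KD, Mbd3 KD against Chd4 KD and Mbd3 KD against Mbd2 KD, because few degrees of freedom remain. The lower floor left 1 in Mbd3 KD, 1 in Mbd3 KD against Chd4 KD and 1 in Mbd3 KD against Mbd2 KD. Slide as a block left 1 in Mbd3 KD (Oasl1), and probes well above background on all 12 arrays left 2 in Chd4 KD and 0 in Mbd3 KD against Chd4 KD, with fewer genes tested. Quantile normalization and a trended and robust prior each left 1 in Mbd3 KD against Chd4 KD. The authors' deposited table holds 19 members, and each KD was tested in it against 0 with no control spread. In it 10 members were called in Mbd3 KD, 13 in Chd4 KD and 4 in Dnmt1 KD. Over all genes this table gave 3412 calls in Mbd3 KD and 4213 in Chd4 KD. The members' counts were not compared with the share over all its genes. On its narrower scale the called members' changes were smaller (Oasl1 in Mbd3 KD 0.24). Leaving out each array in turn gave 1 to 3 in Mbd3 KD (1 without replicate 1 of EGFP KD or of Mbd3 KD), 2 to 5 in Chd4 KD (2 without EGFP KD replicate 1 or Chd4 KD replicate 2), 1 to 3 in Mbd3 KD against Chd4 KD, 1 to 3 in Mbd3 KD against Mbd2 KD, and 0 after KD of Dnmt1, Mbd2 or Tet1, while 31 to 36 members were well above background in EGFP KD. The cause of these changes was otherwise not tested.

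Over all genes, the calls ranged from 0 to 3412 in Mbd3 KD and from 0 to 4213 in Chd4 KD, where leaving out 1 array gave 28 to 127 and 320 to 857. Both maxima came from the authors' table. Dnmt1 KD ranged from 0 to 1066, Tet1 KD from 0 to 56 and Mbd2 KD from 0 to 48, and the comparisons of Mbd3 KD with Chd4 KD and with Mbd2 KD from 0 to 531 and from 0 to 253.

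Replicate numbers were not taken to pair the arrays, since 10 of 15 pairs of groups, and not all, had correlated deviations over 0.1 (-0.04 to 0.767, median 0.384). In Mbd3 KD, Mbd2 KD and Dnmt1 KD replicate 1 was on slide 1 and replicate 2 on slide 3. For these groups the replicate number and the slide therefore coincide. With the replicate number as a block 3 members were called in Mbd3 KD (Oasl1, Rsad2 and also Ifitm3, limma adjusted p = 0.024), 5 in Chd4 KD (Tap1 in addition, adjusted p = 0.036), 3 in Mbd3 KD against Chd4 KD, 2 in Mbd3 KD against Mbd2 KD and 0 in the other KDs, and Xaf1 was not called (limma adjusted p = 0.059 in Mbd3 KD against EGFP KD). With 2 arrays per group, signals near background, such as those of Rsad2, Cxcl10 and Tap1, have the least certain sizes.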
